A study of Mus musculus with 6 samples.

Results

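The genes described here are 10 enzymes of serine synthesis and folate-dependent one-carbon metabolism, Phgdh, Psat1, Psph, Shmt1, Shmt2, Mthfd1, Mthfd2, Mthfd1l, Aldh1l2 and Gldc, chosen by name, and all 10 were found among the 49585 genes of the deposited tables. They were measured by RNA sequencing in mGB2, a mouse glioblastoma line that the labels call a glioblastoma stem cell line, in 3 libraries of Bcat1-KO cells and 3 libraries of Control cells (NT in the design text). Both groups were untreated and were grown attached to matrix-coated plates in DMEM:F12 with N2, B27, EGF and FGF until confluent. The labels do not say how the knockout was made, whether it is a single clone, or whether replicates were separate cultures, so p-values here rest on the spread among these libraries alone, and that spread may be technical.

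Serine is made from the glycolytic intermediate 3-phosphoglycerate by Phgdh, Psat1 and Psph in turn, and Psat1 takes its amino group from glutamate, the product of branched-chain aminotransferases such as Bcat1. Serine hydroxymethyltransferases then split serine into glycine and a carbon unit carried on tetrahydrofolate, in mitochondria by Shmt2 and in the cytosol by Shmt1. Mitochondrial Mthfd2 and Mthfd1l turn that unit into formate, cytosolic Mthfd1 takes formate up again for purine and thymidylate synthesis, Aldh1l2 oxidises the formyl unit to carbon dioxide with production of NADPH, and Gldc is the glycine decarboxylase of the mitochondrial glycine cleavage system.

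The libraries held 29543157 to 37800648 reverse-strand gene counts, and mitochondrially encoded genes took 1.31% to 2.28% of them, most in Control replicate 1. Markers of neural and glioma stem cells such as Sox2, Nes, Olig2 and Slc1a3 were present in both groups, with summed levels over 8 genes of 3153 to 3367 CPM in knockout libraries and 1703 to 1789 CPM in control libraries. CPM is the read count relative to library size after TMM scaling. Not all 8 were well expressed, as Prom1 stayed under 1 CPM in every library and was at 0 in the control. Fabp7 was at 5.51 to 7.53 CPM in control libraries and 185 to 192 CPM in knockout libraries. Of the stem cell markers 6 of 8 were higher and 0 lower in the knockout, as were 5 of 6 astrocyte markers, at an adjusted p under 0.05 by the quasi-likelihood test of edgeR with Benjamini-Hochberg adjustment over all tested genes, where 32% of genes tested were higher. These counts include Prom1 and Aqp4, the latter at 0.0318 to 0.0904 CPM in control libraries and 2.76 to 5.98 CPM in knockout libraries. Both met the filter on low counts only through the knockout, so their calls carry no weight beside that share. Of 6 neuron markers Syt1 and Map2 were higher, and Rbfox3 was lower, at 0.0277 to 0.110 CPM against 32.3 to 33.6 CPM in the control. Rbfox3 met that filter only through the control. Of 7 microglia and macrophage markers 6 stayed under 1 CPM in every library, with Itgam at 0, as did all 5 endothelial markers, with Cldn5 at 0. Of 6 fibroblast and mural cell markers Col1a2, Dcn and Lum stayed under 1 CPM, and the sum of the 6 was 4.48 to 6.07 CPM in knockout libraries and 24.5 to 26.5 CPM in control libraries. Bcat1 itself remained transcribed, at 155, 176 and 173 CPM in knockout libraries and 214, 223 and 232 CPM in control libraries, with a log2 fold change of -0.41 (SE 0.07; edgeR adjusted p = 0.000355). A count over the whole gene cannot tell if an edited exon was in the transcript.

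The largest change among the enzymes was in the glycine decarboxylase gene Gldc, which rose 2.07-fold in the knockout. The genes of the cytosolic enzymes Shmt1 and Mthfd1 rose 1.37-fold and 1.15-fold. Those of the mitochondrial enzymes Mthfd1l and Aldh1l2 fell, with levels 1.59-fold and 1.55-fold higher in the control, while neither Shmt2 nor Mthfd2 passed the test. Gldc, which rose, is mitochondrial too. Both Mthfd1l and Aldh1l2 lie on chromosome 10, where 357 of 674 tested genes were lower. Mthfd1 lay 0.07 below the median log2 fold change of its 50 nearest tested genes. Of the serine synthesis enzymes Psat1 rose 1.32-fold, and neither Phgdh nor Psph passed. In bulk RNA, fewer cells of a type and less RNA per cell cannot be told apart. All 10 genes passed the filter on low counts in the full table. In all, 6 of the 10 genes passed the threshold, 4 higher and 2 lower, against 62.3% of the 14020 genes tested (32% higher, 30.3% lower), so this count is near the background. The groups did not overlap for 7 of the 10 genes, against 67.7% of all genes tested. A change of at least 2-fold was found for 1 of 10, Gldc, against 19.2% of genes tested. The median absolute log2 fold change was 0.30 over the 10 genes and 0.38 over all genes tested, and the median signed change was 0.07 and 0.01.

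**Figure D1:**
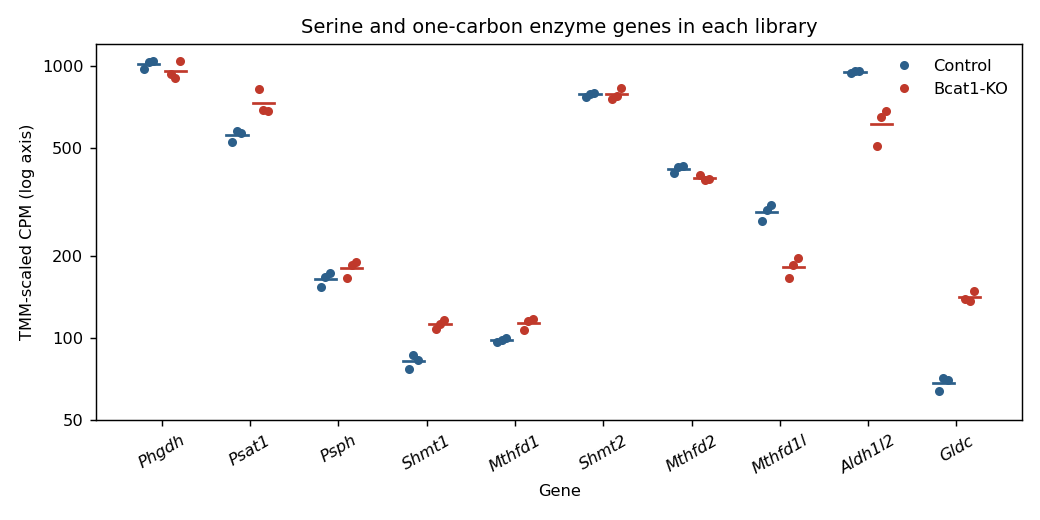
TMM-scaled CPM (log axis) of the 10 enzyme genes in each library, with control in blue, Bcat1-KO in red and the group mean as a bar. The 3 knockout points of Gldc, from 138 to 149 CPM, lie above the 3 control points, from 64.0 to 71.3 CPM, whereas the groups overlap for Phgdh, Psph and Shmt2.

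These transcripts were abundant in both groups, and their order by level was given on the TPM scale, which divides by gene length. Phgdh was highest in both groups, with 1267 ± 102 TPM in knockout libraries and 1293 ± 45.5 TPM in the control (mean ± SD, n = 3), which placed it 76th and 81st among the genes tested. Shmt2 followed with 1122 ± 69.3 and 1078 ± 15.4 TPM, and Psat1 came next with 564 ± 50.8 and 413 ± 16.5 TPM. In the control the ranges of Psat1 and Aldh1l2 (401 ± 4.16 TPM) overlapped. Below them lay Mthfd2 at 380.1 ± 10.3 TPM, Mthfd1l at 207 ± 13.7 TPM, Psph at 120.4 ± 6.78 TPM, Mthfd1 at 93.8 ± 1.48 TPM, Shmt1 at 67.1 ± 3.51 TPM and Gldc, the lowest, at 57.7 ± 3.01 TPM. In the knockout Gldc reached 124 ± 5.82 TPM and stood above Mthfd1 (112 ± 7.22 TPM) and Shmt1 (95.1 ± 4.92 TPM). Its range there overlapped that of Mthfd1l (135 ± 13.4 TPM), which in turn overlapped that of Psph (137 ± 11.8 TPM). Together the 10 genes took 0.419% ± 0.0199 of the TPM in the knockout and 0.411% ± 0.0115 in the control, so their total differed by less than the spread between libraries.

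Serine synthesis begins with Phgdh, the dehydrogenase that takes 3-phosphoglycerate out of glycolysis (ENSMUSG00000053398.11, chromosome 3 from 98313170 to 98339990, mm10). It was measured at 934, 907 and 1044 CPM in knockout libraries and 973, 1033 and 1049 CPM in control libraries. The groups overlapped, and the log2 fold change of -0.08 had a 95% interval of -0.26 to 0.09 (SE 0.08; edgeR adjusted p = 0.389). Psat1, the aminotransferase of the second step (ENSMUSG00000024640.9, chromosome 19 from 15904678 to 15947337), was measured at 825, 692 and 683 CPM in knockout libraries and 527, 576 and 567 CPM in control libraries. Every knockout library lay above every control library, replicate 1 by the widest margin, and Psat1 rose by a log2 fold change of 0.40 (SE 0.09; edgeR adjusted p = 0.00195). Without Bcat1-KO replicate 1 the change was 0.28 (edgeR adjusted p = 0.00133). Psph, the phosphatase that releases serine (ENSMUSG00000029446.14, chromosome 5 from 129765558 to 129787449), was measured at 167, 187 and 190.3 CPM in knockout libraries and 154, 168 and 173 CPM in control libraries. The lowest knockout library lay inside the control range, and the log2 fold change of 0.13 did not pass (95% interval -0.03 to 0.30; edgeR adjusted p = 0.135). Without that library, Bcat1-KO replicate 1, it was 0.17 and passed (edgeR adjusted p = 0.0266).

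The step from serine to glycine is run by a cytosolic and a mitochondrial enzyme, of which the gene of the first passed the test and that of the second did not. The difference between these changes was not tested. Shmt1, the cytosolic hydroxymethyltransferase (ENSMUSG00000020534.14, chromosome 11 from 60788104 to 60811718), was measured at 109, 113 and 117 CPM in knockout libraries and 77.2, 87.0 and 83.4 CPM in control libraries. All knockout libraries were higher than all control libraries, with a log2 fold change of 0.45 (SE 0.07; edgeR adjusted p = 0.000109). Shmt2, the mitochondrial enzyme (ENSMUSG00000025403.4, chromosome 10 from 127517123 to 127522444), was measured at 758, 777 and 834 CPM in knockout libraries and 773, 792 and 798 CPM in control libraries. The control values lay inside the knockout range, and the log2 fold change of 0.00, whose sign changed with the scaling, had a 95% interval of -0.15 to 0.16 (edgeR adjusted p = 0.969).

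Past that step, Mthfd1 and Mthfd1l moved in opposite directions. Mthfd1, the trifunctional cytosolic enzyme of folate carbon (ENSMUSG00000021048.6, chromosome 12 from 76255232 to 76319820), was measured at 108, 115 and 118 CPM in knockout libraries and 97.3, 98.8 and 100.3 CPM in control libraries. The groups did not overlap, and the log2 fold change was 0.20 (SE 0.06; edgeR adjusted p = 0.0134). This call was lost on leaving out Bcat1-KO replicate 3 (adjusted p = 0.0592), Control replicate 1 (adjusted p = 0.0544), Control replicate 2 (adjusted p = 0.0613) or Control replicate 3 (adjusted p = 0.0502, all by edgeR). Mthfd2, the mitochondrial dehydrogenase and cyclohydrolase (ENSMUSG00000005667.8, chromosome 6 from 83305691 to 83325908), was measured at 399, 383 and 384 CPM in knockout libraries and 405, 426 and 429 CPM in control libraries. The 3 knockout values were all under the 3 control values, although the log2 fold change of -0.11 did not pass (95% interval -0.26 to 0.03; edgeR adjusted p = 0.16). Without Bcat1-KO replicate 1, the highest knockout library, it was -0.15 and passed (edgeR adjusted p = 0.0382).

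Mthfd1l, the mitochondrial ligase that releases formate (ENSMUSG00000040675.17, chromosome 10 from 3973118 to 4167081), was measured at 166, 186 and 197 CPM in knockout libraries and 269, 295 and 309 CPM in control libraries. The groups lay far apart relative to their spread, and Mthfd1l fell by 0.67 on the log2 scale (SE 0.08; edgeR adjusted p = 2.13e-05). Aldh1l2, the mitochondrial formyltetrahydrofolate dehydrogenase (ENSMUSG00000020256.14, chromosome 10 from 83487450 to 83534140), was measured at 507, 648 and 686 CPM in knockout libraries and 943, 957 and 963 CPM in control libraries. The control libraries were close together and the knockout libraries were spread, with replicate 1 lowest, and Aldh1l2 fell by 0.64 on the log2 scale (SE 0.10; edgeR adjusted p = 0.000219). Without Bcat1-KO replicate 1 the change was -0.54 (edgeR adjusted p = 7.14e-06).

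Gldc (ENSMUSG00000024827.9, chromosome 19 from 30098449 to 30175418) encodes the P protein of the glycine cleavage system, which breaks glycine down and passes a carbon unit to folate. It was measured at 140.1, 138 and 149 CPM in knockout libraries and 64.0, 71.3 and 70.6 CPM in control libraries. The groups were separated by nearly the whole control level, with a log2 fold change of 1.05 (SE 0.07, 95% interval 0.90 to 1.20; edgeR adjusted p = 8.3e-08). It was the single member past a test against a 1.5-fold change (edgeR adjusted p = 1.7e-05), which 21.7% of the genes tested passed. Of the other genes of the same complex 1 of 3 passed, Dld. Gcsh, the carrier protein, had 84.3 ± 1.94 CPM in knockout libraries and 92.2 ± 3.90 CPM in control libraries (SD, n = 3; edgeR adjusted p = 0.0876), and passed as lower without Bcat1-KO replicate 1 (edgeR adjusted p = 0.0373) or without Control replicate 1 (edgeR adjusted p = 0.0436). Amt, the aminomethyltransferase, had 8.09, 10.8 and 8.25 CPM in knockout libraries and 11.5, 6.48 and 6.64 CPM in control libraries (log2 fold change 0.14; edgeR adjusted p = 0.583), and without Control replicate 1 its log2 fold change was 0.45 and passed (edgeR adjusted p = 0.0406). Dld, the dihydrolipoamide dehydrogenase that the complex shares with other mitochondrial dehydrogenases, rose by a log2 fold change of 0.45 (edgeR adjusted p = 0.000324) and lay 0.27 above the median of its neighbours. Gldc is also expressed in astrocytes and neural progenitors, and the summed astrocyte markers went from 149.6 to 183 CPM in the control to 446 to 479 CPM in the knockout, most of it from Aldoc. Their part in the Gldc result was not tested.

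**Figure D2:**
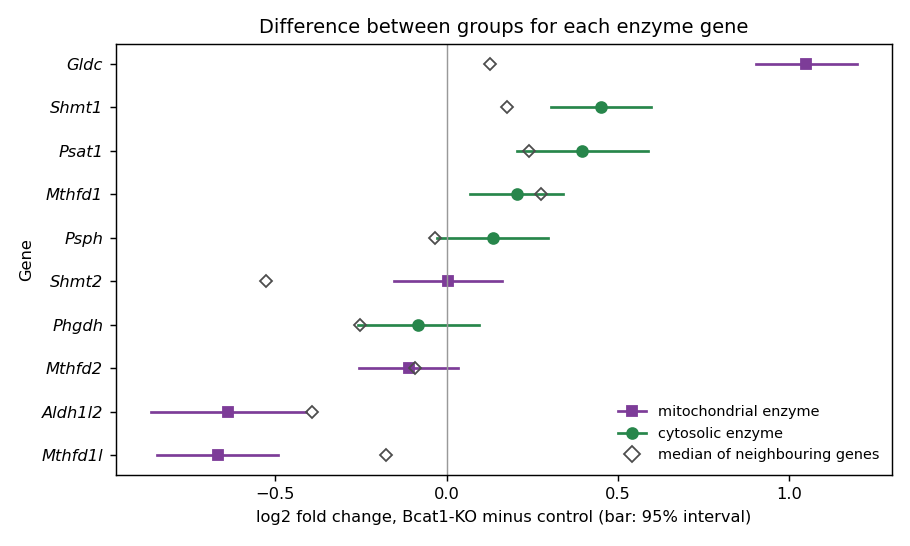
Log2 fold change (Bcat1-KO minus control) of each enzyme gene with its 95% interval, circles for cytosolic and squares for mitochondrial enzymes, and open diamonds for the median of the nearest tested genes on the same chromosome. Gldc is at 1.05 and Mthfd1l at -0.67, and the diamond of Mthfd1, at 0.28, lies above its own value of 0.20.

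The balance between the compartments was read from the TPM ratio of each pair in the same library, as a description without a test. Shmt2 to Shmt1 was 11.8, 11.6 and 12.01 in knockout libraries and 16.9, 15.3 and 16.1 in control libraries. All knockout ratios were lower, on average 0.732 of the control. Mthfd2 to Mthfd1 was 3.54, 3.16 and 3.10 in knockout libraries and 3.97, 4.11 and 4.08 in control libraries, again without overlap. Mthfd1l to Mthfd1 was 1.16, 1.21 and 1.247 in knockout libraries and 2.07, 2.24 and 2.31 in control libraries, so that the knockout ratio was 0.546 of the control. Both ratios to Mthfd1 share that gene, and Mthfd1l lies on chromosome 10, where 357 of 674 tested genes were lower. With log2 fold changes of 0.00 for Shmt2 and 0.45 for Shmt1, their ratio mostly restates Shmt1. Of single genes tested 67.7% did not overlap between the groups, and no such share was counted for ratios. Aldh1l1, the cytosolic relative of Aldh1l2, had only 6 to 15 counts a library and was not tested, so the transcripts were mainly of the mitochondrial form, at 1118 ± 126 times the TPM of Aldh1l1 in the knockout and 2704 ± 286 times in the control. Mthfd2l, the other mitochondrial dehydrogenase, had 30.4 ± 2.12 CPM in knockout libraries and 33.8 ± 2.29 CPM in control libraries and did not pass (log2 fold change -0.15; edgeR adjusted p = 0.118).

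**Figure D3:**
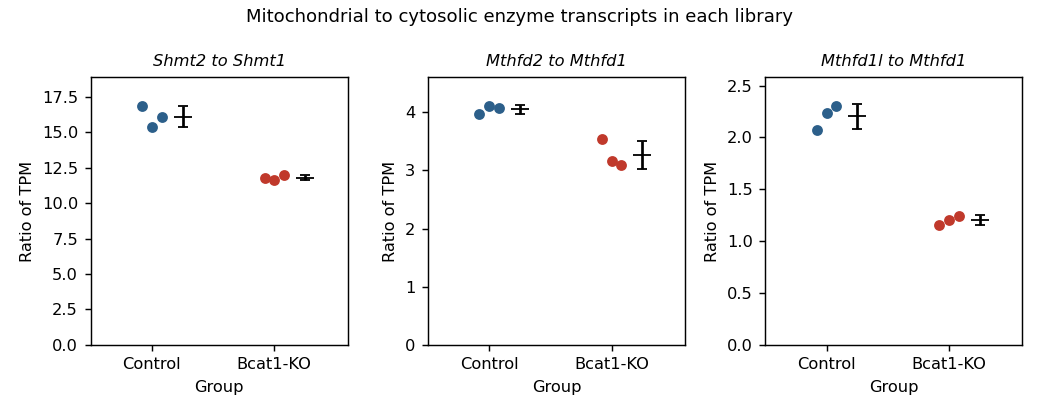
Ratio of the TPM of the mitochondrial gene to that of the cytosolic gene in each library (points), with mean and SD beside them, for Shmt2 to Shmt1, Mthfd2 to Mthfd1 and Mthfd1l to Mthfd1, on axes from 0. In each panel the 3 knockout points lie below the 3 control points, by the most for Mthfd1l to Mthfd1, at 1.20 against 2.21.

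Replicates did not scatter evenly. Control replicate 1 was the lowest control library for all 10 genes on the CPM scale. It was also the library with the largest mitochondrial share of counts, and a link between these was not tested. Bcat1-KO replicate 1 was the lowest knockout library for 6 of the 10 (Psph, Shmt1, Shmt2, Mthfd1, Mthfd1l and Aldh1l2) and the highest for 2 (Psat1 and Mthfd2). Bcat1-KO replicate 3 was the highest for the other 8. How often each library was lowest or highest over all tested genes was not counted, so these orders may not be particular to the enzymes.

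Each gene was also set beside its nearest tested neighbours on the chromosome. Chromosome 10, which carries Shmt2, Mthfd1l and Aldh1l2, had a median log2 fold change of -0.27 over 674 tested genes, with 357 lower and 110 higher. Among the 50 genes nearest to Aldh1l2 the median was -0.39, with 32 lower and 6 higher, and Aldh1l2 lay 0.24 below that median. The median around Mthfd1l was -0.18 over the 27 genes that its place near the chromosome end left, and Mthfd1l lay 0.49 below it. Around Shmt2 the median was -0.53, with 35 of 50 genes lower, so Shmt2, at 0.00, lay 0.53 above its neighbours. The 50 genes around Mthfd1 had a median of 0.28, and Mthfd1 lay 0.07 below it, which turned its direction. Phgdh, which had not passed, turned too: the median of its 50 neighbours was -0.25, with 25 lower, and Phgdh lay 0.17 above it. Psph lay 0.17 above its neighbours, and Mthfd2 0.02 below. Psat1 and Shmt1 lay 0.16 and 0.27 above their neighbours, against 0.40 and 0.45 without that comparison. Gldc lay 0.92 above its neighbours, whose median was 0.13. The targeted gene Bcat1, at -0.41, lay 0.65 below its neighbours, whose median was 0.24, with 28 of 50 higher. Whether copy number or another regional feature differed between the groups was not tested.

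Reads on the opposite strand were few except where another gene overlaps. They made up 10.99% to 12.8% of the stranded reads at Psph, which shares its start with Cct6a on the other strand, and 3.40% to 7.72% at Shmt1, whose end meets that of Smcr8. Aldh1l2 overlaps D10Wsu102e at its end, and counting without strand kept only 83.6% to 86.0% of its reads. The strand-matched counts used here separate these pairs, and with unstranded counts the log2 fold changes of Psph, Shmt1 and Aldh1l2 were 0.14, 0.43 and -0.65. Mthfd2 overlaps Gm43890 on the same strand, where the counting cannot divide shared reads with certainty.

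Promoters were searched for short motifs as a description, because genes of these pathways have been described as targets of the transcription factors Atf4 and Myc. Motifs were not compared between genes that rose and genes that fell. RefSeq windows of 300 bases around the RefSeq start (GRCm38.p6, the assembly of mm10) were found for 9 of the 10 genes, and Aldh1l2 had no entry. Some windows lay inside the gene span given above and not at its end. This held for Psat1 (15924573 to 15924872 and 15925010 to 15925309), Mthfd2 (83317555 to 83317854) and Shmt1 (60811216 to 60811515). These genes are among those counted for CCAAT below. The sequences below are the 250 bases before the start of the gene that rose most, Gldc (chr19:30175442-30175691, minus strand), the gene that fell most, Mthfd1l (chr10:3972825-3973074, plus strand), and the pair of most abundant genes that did not pass, Phgdh (chr3:98339970-98340219, minus strand) and Shmt2 (chr10:127522445-127522694, minus strand), each written 5′ to 3′ along the gene. Capitals mark the letters CCAAT and GGGCGG on either strand.
Gldc: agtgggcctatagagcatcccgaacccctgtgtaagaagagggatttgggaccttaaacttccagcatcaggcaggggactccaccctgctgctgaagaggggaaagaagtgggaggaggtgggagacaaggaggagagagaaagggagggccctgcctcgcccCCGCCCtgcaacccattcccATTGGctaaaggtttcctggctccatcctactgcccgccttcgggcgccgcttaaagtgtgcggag
Mthfd1l: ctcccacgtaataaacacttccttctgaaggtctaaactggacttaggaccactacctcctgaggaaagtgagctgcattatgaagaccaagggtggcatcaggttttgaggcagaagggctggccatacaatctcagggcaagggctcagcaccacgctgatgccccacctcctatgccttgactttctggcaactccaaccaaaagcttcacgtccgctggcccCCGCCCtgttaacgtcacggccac
Phgdh: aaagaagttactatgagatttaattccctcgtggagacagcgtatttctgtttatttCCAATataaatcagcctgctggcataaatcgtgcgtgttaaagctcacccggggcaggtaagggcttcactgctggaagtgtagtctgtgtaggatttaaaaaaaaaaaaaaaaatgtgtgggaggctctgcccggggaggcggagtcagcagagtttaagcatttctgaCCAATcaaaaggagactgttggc
Shmt2: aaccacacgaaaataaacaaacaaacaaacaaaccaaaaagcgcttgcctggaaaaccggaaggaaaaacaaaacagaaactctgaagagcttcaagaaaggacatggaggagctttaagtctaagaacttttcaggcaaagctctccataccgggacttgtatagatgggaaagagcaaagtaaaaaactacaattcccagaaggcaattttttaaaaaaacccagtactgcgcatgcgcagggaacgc
The Gldc sequence held 1 CCAAT, read as ATTGG, and 1 GGGCGG, read as CCGCCC, the Mthfd1l sequence 1 GGGCGG and no CCAAT, the Phgdh sequence 2 CCAAT, and the Shmt2 sequence neither. Over the full windows, CCAAT was found in 7 of 9 genes and in 37.4% of all 32851 windows, and GGGCGG in 6 of 9 genes and in 35.7% of all windows. A gene was counted if any of its windows matched, whereas the share is per window, so the units differ. Psat1 had more than 1 window, and its CCAAT and GGGCGG matches lay in different windows. The core of the C/EBP-ATF response element, TGATGNAA, was found in 0 of 9 genes and in 3.97% of all windows, and the E-box CACGTG in 0 of 9 and in 7.15%, both strands searched. A match is a description of letters, and no match says only that they are not in these windows.

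Genes around the pathway were described from 7 lists of 95 genes, of which 85 were tested, 33 higher and 21 lower. Over all genes tested 32% were higher and 30.3% lower, and the counts of these short lists are to be read beside those shares. Among folate transporters and other folate enzymes 5 of the 10 tested were higher and 2 lower, and the median was 0.32 on the log2 scale. Ggh, which trims the glutamate tail of folates, rose from 7.92 to 16.0 CPM (log2 fold change 1.02). The mitochondrial folate carrier gene Slc25a32 (0.60) and thymidylate synthase Tyms (0.60) also rose, while Slc19a1, the reduced folate carrier of the plasma membrane, fell from 80.2 to 57.0 CPM (-0.49). The neighbours of Slc25a32 and Tyms were mostly higher as well (34 and 33 of 50), and these genes lay 0.27 and 0.15 above the median of theirs. Slc19a1 lies on chromosome 10 and was 0.08 above the median of its neighbours, 36 of 50 of which were lower. Of the glycine, sarcosine and dimethylglycine enzymes 2 of 6 were higher and 1 lower. Gcat, which makes glycine from a threonine product, fell from 91.2 to 45.4 CPM (-1.01), and Sardh, the mitochondrial sarcosine dehydrogenase, rose from 123 to 191 CPM (0.64).

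In the methionine cycle and transsulfuration list 3 of 11 were higher and 6 lower, with a median of -0.22. Cbs, which joins serine to homocysteine, was measured at 119, 144 and 146 CPM in knockout libraries and 424, 408 and 411 CPM in control libraries. It fell by 1.603 on the log2 scale (SE 0.08; edgeR adjusted p = 1.35e-08), and Mtrr, which reactivates methionine synthase, fell by 0.68. Ahcyl2 and Mtap rose by 0.61 and 0.51, and Mtap lay 0.33 above the median of its neighbours. Of the genes of serine and glycine transport and use 8 of 15 were higher and 2 lower. Slc1a5, a neutral amino acid transporter, rose from 243 to 823 CPM (1.76). Of its 50 nearest tested genes 26 were higher too, and Slc1a5 lay 1.53 above their median. The serine transporter gene Slc1a4 (0.39) and the serine racemase gene Srr (0.82) rose, and Sptlc2, a subunit of the enzyme that joins serine to palmitoyl-CoA, fell (-0.67). Of the neighbours of Sptlc2 33 of 50 were lower, and Sptlc2 lay 0.21 below their median, while Slc1a4 lay 0.18 above that of its own.

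Purine and thymidylate synthesis, which uses the carbon units, had 6 of 16 genes higher and 1 lower, with a median of 0.12. Tk1 rose by 0.61, Ppat, the first committed enzyme of purine synthesis, by 0.38 and Impdh2 by 0.35, while Impdh1 fell by 0.32. Impdh2 stood at 0.21 without Bcat1-KO replicate 1, and 0.17 above the median of its neighbours. Adssl1, singled out after its values were seen, had the widest change of this list, from 0.318 to 0.379 CPM in the control to 2.13 to 5.15 CPM in the knockout. Gart and Atic, which use formyltetrahydrofolate, did not pass (adjusted p = 0.0589 and 0.081, edgeR), and were also looked up after the values were seen. Around 3-phosphoglycerate 5 of 7 glycolytic genes were higher and 1 lower. Pgam1 rose by 0.77, Eno1 by 0.55 and Pgk1 by 0.40, and the neuronal enolase gene Eno2 fell by 1.09. Pgk1 lay 0.13 above the median of its neighbours.

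Atf4 is the transcription factor that drives many serine and folate genes under amino acid shortage. It was measured at 538, 575 and 591 CPM in knockout libraries and 584, 634 and 639 CPM in control libraries, and did not pass (log2 fold change -0.12, 95% interval -0.29 to 0.04; edgeR adjusted p = 0.162). In the list of Atf4 with its other targets 4 of 20 were higher and 8 lower, with a median of -0.11. Fgf21 fell from 34.8 to 8.75 CPM (-1.99), Gdf15 from 9.11 to 3.40 CPM (-1.42), Ddit3 by 0.79 and Cebpb by 0.76 on the log2 scale. The 4 that rose were Slc7a11 (0.75), Slc3a2 (0.23), Chac1 (0.22) and Pck2 (0.16), looked up after the values were seen. Ddit3 lies on chromosome 10, where its neighbours had a median of -0.48, and it lay 0.31 below that. Around Gdf15 the median was -0.42, with 34 of 50 genes lower, and Gdf15 lay 0.99 below it.

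**Figure D4:**
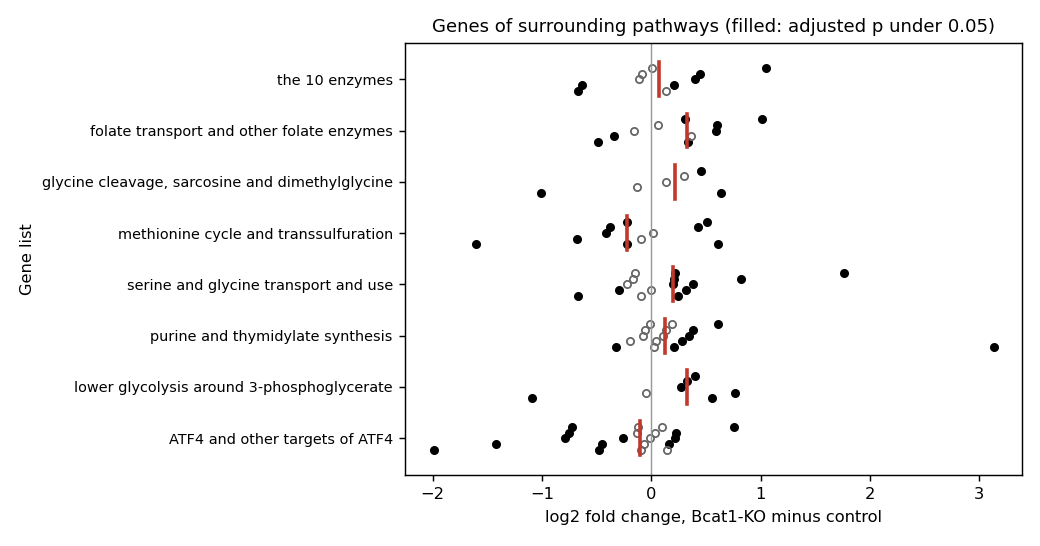
Log2 fold change (Bcat1-KO minus control) of every tested gene of the 10 enzymes and of 7 surrounding lists, filled where the edgeR adjusted p is under 0.05 and open otherwise, with the list median as a red bar. The medians lie between -0.22, for the methionine cycle and transsulfuration, and 0.33, for lower glycolysis, and each row holds genes on both sides of 0.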

How the data were processed

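Per the labels' protocols, RNA was extracted on columns with DNase treatment and made into stranded poly(A) libraries. Per the submitters' processing notes, STAR 2.5.3a, featureCounts and the mm10 genome were used, with an annotation not given in the sources used here. Coordinates are those of the deposited tables. The deposited count columns are raw reads per gene, and reverse-strand counts, 96.4% to 96.5% of stranded reads, were used. The deposited TPM column is scaled per length over all genes of a library.

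Genes passing edgeR's expression filter (14020, without 0.0511% of counts) were scaled by TMM and compared with edgeR 4.0.16's quasi-likelihood test, Benjamini-Hochberg adjusted over all of them at 0.05, with no covariate. Intervals cover 95%. Named genes were Bcat1, the 10 enzymes, their nearest relatives or partners Aldh1l1, Mthfd2l, Amt, Gcsh and Atf4, and up to 4 genes of each list that passed the threshold, reached a mean log2 CPM of 2 and changed most. Members, lists and rule were chosen with earlier results of these data known. The planned comparison of protein sequences was not analysed here.

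Replicate pairs differed beyond counting noise (chi-square per gene 4.00 to 33.2), so none was counted as the same library sequenced again. This spread cannot tell separate cultures from separate libraries of the same culture. Alternatives were 2 other scalings, no filter, DESeq2 1.42.0, limma 3.58.1 (voom, and trend on log2 TPM with pseudocounts 1 and 0.1), unstranded counts, a 1.5-fold test, a replicate block, a fit without mitochondrial genes and the 10 most abundant, subtracting the median of 50 neighbours, and leaving out each replicate. Analyses used R 4.3.3 and Python 3.11.15.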

Additional observations from a re-analysis of the deposited data

Results flagged for a closer look

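Forward-strand reads at Gldc, which the comparison did not use, were higher in the knockout, whereas the groups overlapped for each of the other enzymes. The share of all genes whose forward-strand reads did not overlap between the groups was not counted. The reverse-strand level of Gldc rose 2.07-fold as well, and whether the forward-strand reads follow from it was not tested. The forward-strand reads at Gldc came to 17 over the 3 knockout libraries (6, 7 and 4) and 2 over the 3 control libraries (1, 1 and 0). The difference thus rests on few reads. That was 0.153 ± 0.0378 and 0.0206 ± 0.0179 CPM (mean ± SD, n = 3), at most 0.132% of the stranded reads at Gldc.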

How the results depend on the processing

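Psat1, Shmt1, Mthfd1l and Aldh1l2 kept their direction under the 17 alternatives with a test and passed in 16 of them, all but the 1.5-fold test, and Gldc passed in all 17. In the 1.5-fold test 1 of the 10 enzymes was higher and 0 lower, with 0 lower also at an unadjusted p under 0.05, against 2 lower with DESeq2 and limma-voom. That test left 5 higher and 6 lower genes in the lists, and 1564 higher and 1481 lower genes over all. Leaving out each replicate gave 3 to 5 enzymes higher and 2 to 3 lower, 27 to 32 and 18 to 22 list genes, and 3871 to 4589 and 3846 to 4741 genes over all. Shmt2, close to 0, reversed to -0.0112 with RLE size factors, -0.0079 with upper-quartile scaling, -0.0056 with no filter, -0.0058 without mitochondrial and abundant genes, -0.0074 with DESeq2, and lay between -0.05 and 0.0129 on leaving out each replicate, below 0 without Bcat1-KO replicate 3 (-0.05), Control replicate 1 (-0.0216) or Control replicate 2 (-0.0031). The cause was not tested. Amt lay between -0.019 and 0.4516 on leaving out each replicate and reversed to -0.0172 without Bcat1-KO replicate 2, -0.019 without Control replicate 2 and -0.0004 without Control replicate 3. With the neighbours' median subtracted Mthfd1 and Slc19a1, which had passed, reversed to -0.072 and 0.076, and Phgdh and Gcsh, which had not, to 0.169 and 0.339. The replicate block gave 4 enzymes higher and 2 lower, as without it, and 4448 higher and 4214 lower genes. Same-numbered libraries correlated at -0.0508, -0.073 and 0.156 in their deviations from the group means, so the numbers were not taken to pair them. At these depths 3 counts correspond to 0.0794 to 0.102 CPM, far below the 10 enzymes.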
